A study of Homo sapiens with 6 samples.

Results

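Tenascin-C (TNC), the thrombospondins THBS1, THBS2, THBS3 and THBS4, fibronectin (FN1), the fibrillins FBN1 and FBN2, SPARC and FREM1 are secreted extracellular matrix glycoproteins. These 10 genes were chosen by name and function, with no threshold on their values, from a table of 40488 genes. RNA-seq had been carried out on SCC90 cells, a human papillomavirus-positive oropharyngeal squamous cell carcinoma line, in 2 groups of 3 libraries. The siCTRL cells received a scrambled siRNA and the siDNp63 cells received an siRNA against ΔNp63, at 10 nM according to the labels (the study's methods give another dose), and RNA was taken 72 h later. All 6 libraries come from this single line, with no stromal cells added, and neither the labels nor the methods say that the replicates are separate cultures. The p-values below are therefore set against library-to-library spread alone, part or all of which may be technical.

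ΔNp63 is the form of the transcription factor p63 that lacks the N-terminal transactivation domain, and it is the main p63 form of basal squamous epithelium. Matrix glycoproteins are made both by stromal cells and by carcinoma cells. Fibrillins form the microfibrils that carry latent TGF-β complexes, fibronectin forms a fibrillar network that cells bind through integrins, and tenascin-C and the thrombospondins are modulators of cell adhesion whose levels change in wounds and tumors. SPARC is a calcium-binding regulator of collagen assembly, and FREM1 belongs to the Fraser complex, which anchors the epidermis to its basement membrane.

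Silencing of ΔNp63 moved the 2 most abundant of these transcripts in opposite directions. TNC fell 3.12-fold and FBN1 rose 1.70-fold, so that FBN1 replaced TNC as the most abundant of the 10. FBN2 rose 1.93-fold, THBS2 rose from near the limit of detection, and FREM1 fell from an already low level. THBS1, THBS3, THBS4, FN1 and SPARC did not pass the test. Of the 10 genes, 2 were lower and 3 were higher at an adjusted p below 0.05 (edgeR, quasi-likelihood, with Benjamini-Hochberg correction over 17257 genes), where 15.2% of all tested genes were lower and 18.4% were higher. With an absolute log2 fold change above 1 as a further threshold, 2 of the 10 were lower (TNC and FREM1), against 1.71% of all genes, and 1 was higher (THBS2), against 2.35%. FREM1 and THBS2 passed the filter on low counts only through the group in which they were high. Neither can therefore be read against the shares at either threshold, and of the 3 past both thresholds only TNC can. The 3 siCTRL values did not overlap with the 3 siDNp63 values in 7 of the 10, and this was so for 49.4% of all genes. FREM1 and THBS2 are among these 7, with the same limit. The median log2 fold change of the 10 was 0.09, and that of all tested genes was -0.02.

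The promoters of the genes at the centre of these differences, together with that of FN1, are shown because their start site regions can be set beside opposite changes in RNA. They are RefSeq promoters of GRCh38.p14, all on the minus strand, written 5′ to 3′ from 100 to 21 bases before the start site, and capitals mark the letters TATAA.
TNC (chr9:115118178-115118257): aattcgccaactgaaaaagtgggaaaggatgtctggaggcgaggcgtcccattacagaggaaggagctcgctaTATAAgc
THBS2 (chr6:169253867-169253946): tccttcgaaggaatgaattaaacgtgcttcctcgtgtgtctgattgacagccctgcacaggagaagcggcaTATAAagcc
FN1 (chr2:215436089-215436168): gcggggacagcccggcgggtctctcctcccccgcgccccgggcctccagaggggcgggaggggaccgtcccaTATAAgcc
FBN1 (chr15:48644991-48645070): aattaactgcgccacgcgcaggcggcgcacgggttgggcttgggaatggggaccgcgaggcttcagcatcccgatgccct
FBN2 (chr5:128538266-128538345): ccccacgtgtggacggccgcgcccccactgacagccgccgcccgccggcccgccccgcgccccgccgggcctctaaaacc

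Counted from the start site, TATAA began at position -27 in TNC, -29 in THBS2 and -28 in FN1, and neither fibrillin window held it. These 3 were the windows with TATAA among the 14 RefSeq windows of the 10 genes (each from 250 bases before to 50 after a start, both strands searched), and 20.4% of all 35116 RefSeq promoter windows held it. TNC fell, THBS2 rose and FN1 did not pass the test. THBS2 passed the filter on low counts only through the siDNp63 libraries, so no common or opposite direction is read from these 3 windows. GC content of the printed stretch was 50% in TNC, 48.8% in THBS2, 77.5% in FN1, 66.2% in FBN1 and 82.5% in FBN2. TGANTCA, the letters of an AP-1 site, was in 1 of the 14 windows (a FREM1 window, at position -189) against 7.71% of all windows. The p53 family decamer was in 0 of the 14 against 6.63% of all. These matches describe letters only, and no binding was measured. The last 30 of the printed bases of TNC and of THBS2 lie inside an exon of a longer GENCODE v44 transcript, so other start sites are annotated upstream. The same holds for both fibrillins, whose annotated genes reach upstream of the printed stretches, FBN1 to chr15:48645721 and FBN2 to chr5:128659185. The fibrillin windows are therefore not the only annotated start regions of these genes.

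TP63 itself was first examined in each library. Its normalized counts were 42319, 44204 and 43700.1 in siCTRL and 15520.1, 14474 and 15414 in siDNp63, so every silenced library lay well below every control. TP63 fell by 1.52 on the log2 scale (SE 0.0404, edgeR adjusted p = 7.59e-07). The gene total adds all p63 isoforms, and the ΔN form was not measured apart. Library totals lay between 35716277 and 52598831 expected counts, and siDNp63 replicate 1 stood apart from the other 2 silenced libraries on the second principal component. All 10 epithelial markers were detected, and their summed level stayed between 2194 and 2351 TPM (abundance corrected for depth and transcript length) in every library, a sum that hides opposite moves. Of these 10 markers 3 were lower and 5 higher in siDNp63, where 15.2% of all tested genes were lower and 18.4% higher. Besides TP63, ITGB4 and KRT15 were lower by log2 fold changes of -0.83 and -0.37. CDH1 at 0.62, EPCAM at 0.60 and DSG3 at 0.38 were higher, as were KRT14 (1.42, from 15.6 to 41.7 normalized counts) and KRT17 (0.44). Of 17 fibroblast, endothelial and leukocyte markers 10 were below 1 TPM in every library. The summed TPM of these 17 was 14.3 to 15.9 in siCTRL and 21.4 to 23.6 in siDNp63. Of the 10 of these 17 markers that were tested, 1 was lower and 3 were higher in siDNp63, beside the same shares of all genes. KDR, a VEGF receptor, rose by 2.36 on the log2 scale (243 in siCTRL and 1255 in siDNp63, edgeR adjusted p = 1.88e-06). PECAM1 rose by 2.39 (38.2 to 199.8, edgeR adjusted p = 2.40e-05) and VWF by 0.88 (101 to 186, edgeR adjusted p = 0.00264). Other markers of this list were expressed and did not pass: COL1A1 had means of 6.52 TPM in siCTRL and 5.74 TPM in siDNp63, PDGFRA of 1.23 and 1.10 TPM, and COL6A3 of 0.826 and 0.888 TPM. PDGFRB and FAP were at 0 in every library, while LUM had means of 0 and 0.318 normalized counts and CDH5 of 3.61 and 1.21. DCN, a stromal proteoglycan, was lower (27.5 to 10.7, edgeR adjusted p = 0.0284), and this call was lost on leaving out any one of 5 libraries, every siCTRL library and siDNp63 replicates 1 and 2 in turn. DCN had 25, 26 and 30 reads in siCTRL and 5, 11 and 17 in siDNp63. It passed the filter on low counts only through siCTRL, so this 1 lower marker cannot be read against the shares of all genes. The part of these markers in the results on the 10 genes was not tested. In bulk RNA, fewer cells of a type and less RNA per cell cannot be told apart.

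TNC encodes tenascin-C, the large hexameric glycoprotein that modulates adhesion to fibronectin. It lies on chromosome 9 (chr9:115019575-115118207, minus strand, GRCh38, GENCODE v44), with 28 exons in a canonical transcript of 8500 bases. Its normalized counts were 76568, 75781 and 76937 in the siCTRL libraries and 23802, 24726 and 24903 in the siDNp63 libraries. Both groups were tight, with each siDNp63 value far below each control. The mean fell from 76429 ± 590 to 24477 ± 592 normalized counts (SD, n = 3 each), which is -1.64 as a log2 fold change (SE 0.0323, 95% interval -1.72 to -1.57, edgeR adjusted p = 1.57e-07). On the TPM scale it went from 569 ± 13.4 TPM to 182 ± 8.14 TPM (SD, n = 3). The ratio of TNC to TP63 in TPM was 1.57 ± 0.0694 in siCTRL and 1.53 ± 0.105 in siDNp63 (SD, n = 3), with overlapping values and an exact two-sided permutation p of 0.7. The smallest p that 3 against 3 libraries allow in this test is 0.1.

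**Figure D1:**
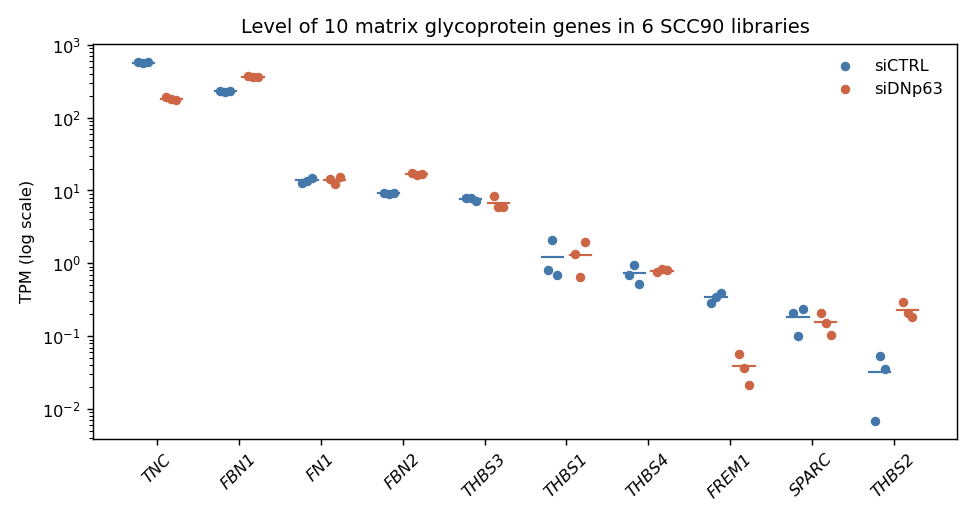
Level of each of the 10 genes in TPM (vertical axis, log scale) in the 6 libraries, 1 point per library, with a bar at the group mean. TNC lies at 569 TPM in siCTRL and 182 TPM in siDNp63 and FBN1 at 229 and 364 TPM, while THBS2 and FREM1 move in opposite directions below 1 TPM.

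The fibrillins encode the backbone of microfibrils, FBN1 being the form of mature tissue and FBN2 the form best known from development. FBN1 (chr15:48408313-48645721, minus strand, 66 exons in a canonical transcript of 11609 bases) had 43397, 42565 and 45420.3 normalized counts in siCTRL and 76034, 72907 and 74374 in siDNp63. All silenced libraries were above all controls, by far more than either group's spread. Its mean rose from 43794 ± 1469 to 74438 ± 1564 (SD, n = 3), a log2 fold change of 0.77 (SE 0.0361, 95% interval 0.68 to 0.85, edgeR adjusted p = 6.11e-06), and its level from 229 ± 4.46 to 364 ± 5.08 TPM. FBN2 (chr5:128257909-128659185, minus strand, 65 exons in a canonical transcript of 10927 bases) had 2761, 2725 and 2848 normalized counts in siCTRL. In siDNp63 it had 5519.8, 5321 and 5262, again with no overlap between the groups. The log2 fold change of FBN2 was 0.95 (SE 0.0384, 95% interval 0.86 to 1.04, edgeR adjusted p = 3.25e-06), and its level rose from 9.20 ± 0.170 to 16.8 ± 0.359 TPM. The rise of FBN2 came close to, but did not pass, the log2 threshold of 1. FBN1 stayed far above FBN2: the FBN1 to FBN2 ratio of TPM was 24.9 ± 0.361 in siCTRL and 21.7 ± 0.170 in siDNp63 (SD, n = 3), without overlap (exact two-sided permutation p = 0.1, the smallest possible).

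**Figure D2:**
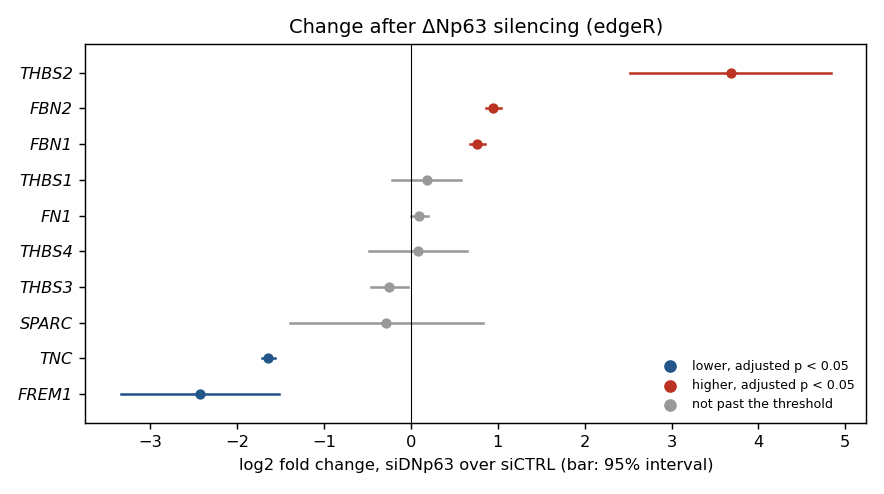
Log2 fold change of siDNp63 over siCTRL for each gene (horizontal axis), with its 95% interval from edgeR. TNC at -1.64 and FREM1 at -2.43 lie below 0, FBN1 at 0.77, FBN2 at 0.95 and THBS2 at 3.68 lie above it, and the 5 grey genes did not pass the adjusted p threshold of 0.05.

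The thrombospondins are calcium-binding glycoproteins that form trimers (THBS1 and THBS2, which carry type 1 repeats and inhibit angiogenesis) or pentamers (THBS3 and THBS4). THBS2 (chr6:169215780-169254050, minus strand) had 1, 2 and 4 reads in the siCTRL libraries and 33, 34 and 26 in the siDNp63 libraries, or 0.868, 2.08 and 4.51 against 42.2, 29.1 and 24.8 normalized counts. The lowest silenced library was far above the highest control, but the control level was a handful of reads. The log2 fold change was 3.68 (SE 0.498, 95% interval 2.53 to 4.84, edgeR adjusted p = 9.35e-04), and the ratio of depth-scaled counts, from 7 against 93 reads, was 13.3 with a 95% counting interval of 6.21 to 34.0. THBS2 passed the filter on low counts only through the siDNp63 libraries, so a difference in that direction was built in. With a single library left out the log2 fold change ran from 3.23 (without siCTRL replicate 1) to 4.36 (without siCTRL replicate 3), and it was 3.18 with transcript length offsets. Even after its rise THBS2 was at 0.228 ± 0.0598 TPM (SD, n = 3), from 0.0319 ± 0.0235.

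THBS1, the thrombospondin best known as an activator of latent TGF-β, lies on chromosome 15 (chr15:39581079-39599466, plus strand). It had 129, 106 and 151 normalized counts in siCTRL and 124, 149 and 163 in siDNp63, and the groups overlapped. The log2 fold change of THBS1 was 0.18 (SE 0.171, 95% interval -0.22 to 0.58, edgeR adjusted p = 0.465). THBS4 (chr5:79991311-80083287, plus strand) was lower still, at 26.0, 26.0 and 30.4 normalized counts in siCTRL and 28.2, 35.1 and 23.8 in siDNp63. These values also overlapped, with a log2 fold change of 0.09 (95% interval -0.48 to 0.65, edgeR adjusted p = 0.818), so a difference of THBS4 within this interval was not detectable at this depth.

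THBS3 (chr1:155195588-155209051, minus strand) was the most abundant thrombospondin. Its normalized counts were 414, 488 and 415 in siCTRL and 369.9, 372 and 366 in siDNp63. The groups did not overlap, but the 3 controls spread more widely than the silenced libraries. The log2 fold change was -0.25 (SE 0.0916, 95% interval -0.46 to -0.04), with an unadjusted edgeR p of 0.0273 and an adjusted p of 0.0721. When the counts were scaled by library size alone, it passed (log2 fold change -0.33, edgeR adjusted p = 0.0236), a scaling that moved the median of all genes to -0.11. In TPM the groups of THBS3 overlapped, since siDNp63 replicate 1 was at 8.29 TPM and the other 2 silenced libraries at 5.87 and 5.88, against 7.09 to 7.96 in siCTRL. THBS3 shares its locus with MTX1 on the other strand, which had a mean of 2493 expected counts. The study's methods state that kallisto was run with its default options and name no strand option. Reads of the shared bases may therefore not be fully told apart.

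FN1 (chr2:215360440-215436073, minus strand, 46 exons, 27 annotated transcripts) encodes fibronectin, the ligand of several of the integrins described below. Its normalized counts were 2437, 2348 and 2522 in siCTRL and 2561, 2574 and 2664 in siDNp63. Each silenced library was above each control, but the gap between the groups was smaller than the SD of either group. The log2 fold change was 0.09 (SE 0.0427, upper 95% bound 0.19, edgeR adjusted p = 0.131). On the TPM scale FN1 was at 13.8 ± 1.17 in siCTRL and 14.0 ± 1.54 in siDNp63 (SD, n = 3), with overlapping values. The interval of FN1 does not reach the size of the changes of TNC, FBN1 or FBN2.

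SPARC (chr5:151661096-151686975, minus strand) was close to the floor, with 19.1, 9.36 and 22.5 normalized counts in siCTRL and 20.5, 15.4 and 6.68 in siDNp63. The groups overlapped almost entirely, and the log2 fold change of -0.28 had a 95% interval of -1.396 to 0.83 (edgeR adjusted p = 0.689). A difference of SPARC within this wide interval was not detectable at this depth.

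FREM1 (chr9:14737152-14910995, minus strand, 37 exons in the canonical transcript) had 41, 26 and 29 reads in siCTRL and 8, 5 and 4 in siDNp63. In normalized counts these were 35.6, 27.04 and 32.7 against 10.2, 4.28 and 3.81, and no silenced library reached a control. FREM1 fell by 2.43 on the log2 scale (SE 0.392, 95% interval -3.34 to -1.52, edgeR adjusted p = 0.00226). The 96 reads in siCTRL against 17 in siDNp63 give a depth-scaled ratio of 0.177 with a 95% counting interval of 0.0992 to 0.299. Like THBS2, it passed the filter through a single group, here siCTRL. Its log2 fold change was -3.09 once the mean length of its transcripts was taken into account. With a single library left out it ran from -2.93 (without siDNp63 replicate 1) to -2.18 (without siDNp63 replicate 3).

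FREM1 works in a complex with FRAS1 and FREM2, which the adaptor GRIP1 brings to the cell surface. FRAS1 was lower (31358 ± 846 to 24159 ± 1263 normalized counts, SD, n = 3, log2 fold change -0.38, edgeR adjusted p = 5.80e-04). GRIP1 was higher (326 to 444, log2 fold change 0.44, edgeR adjusted p = 0.00946), a call lost under transcript length offsets. FREM2 was higher at 0.22 (9428 to 11020.0, edgeR adjusted p = 0.0355), with overlapping groups, and it lost the call without siCTRL replicate 1, siCTRL replicate 2, siDNp63 replicate 1 or siDNp63 replicate 3, and with library size alone. Of the 5 listed genes of the complex 2 were thus lower, 2 were higher and FREM3 was too low to test. Of all tested genes 15.2% were lower and 18.4% higher. FREM1 is 1 of the 2 lower genes and passed the filter only through siCTRL, so it cannot be read against these shares.

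Within the 10 genes, TNC and FBN1 exchanged ranks 1 and 2 by level, FN1 and FBN2 exchanged ranks 3 and 4 without overlapping ranges, and the order also changed among the lowest genes. In siCTRL the order by mean TPM was TNC, FBN1, FN1, FBN2, THBS3, THBS1, THBS4, FREM1, SPARC and THBS2, and only the neighbours THBS1 and THBS4 had overlapping ranges. In siDNp63 it was FBN1, TNC, FBN2, FN1, THBS3, THBS1, THBS4, THBS2, SPARC and FREM1, with overlapping ranges for THBS1 and THBS4 and for THBS2 and SPARC. The ratio of TNC to FBN1 in TPM went from 2.49 ± 0.0117 to 0.499 ± 0.0185 (SD, n = 3). The share of TNC in the summed TPM of the 10 genes was 68.7%, 68.2% and 68.4% in siCTRL and 31.6%, 31.4% and 30.1% in siDNp63. It thus dropped by 37.5 percentage points, more than any spread within a group (exact two-sided permutation p = 0.1, the smallest that 3 against 3 allow). The share of FBN1 went from 27.5% ± 0.0361 to 62.2% ± 0.729, and the summed TPM of the 10 genes from 831 ± 16.7 to 586 ± 14.1 (SD, n = 3). The 8 genes other than TNC and FBN1 together made up 3.99% in siCTRL and 6.82% in siDNp63.

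**Figure D3:**
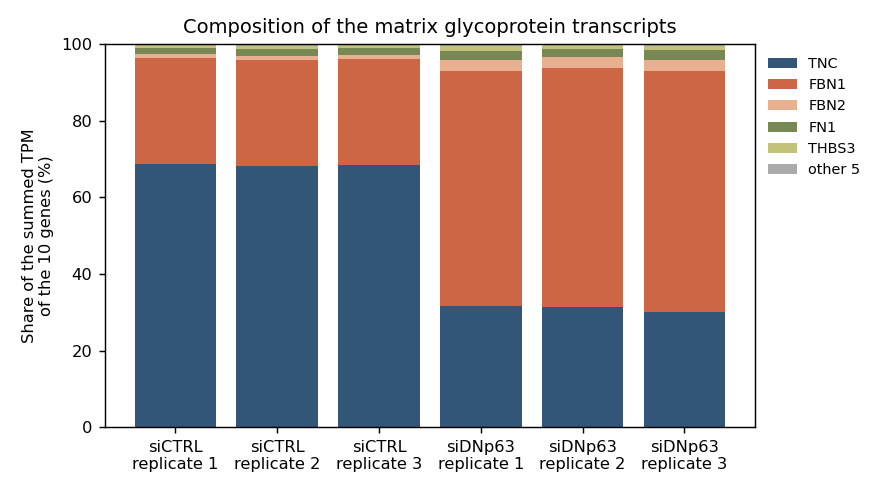
Share of each gene in the summed TPM of the 10 genes (vertical axis, percent), 1 stacked bar per library. TNC takes 68.2% to 68.7% of each siCTRL bar and 30.1% to 31.6% of each siDNp63 bar, and FBN1 takes most of the rest.

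The deposited table gives expected counts and TPM, and the ratio of these is proportional to the mean effective length of the transcripts that reads of a gene were assigned to. This length index (log2, less the median of the library) is a readout of transcript usage that does not depend on the level of the gene. Of the 10 genes, 0 changed at an adjusted p below 0.05 in limma and 0 had an unadjusted p below 0.05, and 3 of 17097 genes (0.0175%) did at the adjusted threshold. The difference for TNC was -0.06 (95% interval -0.20 to 0.08), for FN1 0.02 (-0.21 to 0.24), for FBN1 0.03 (-0.03 to 0.09) and for FBN2 0.02 (-0.01 to 0.05). Shifts in mean transcript length beyond these intervals were therefore not seen in the 4 most abundant genes, although isoforms of like length would not show. FREM1 had the largest difference of the 10, 0.67 (95% interval -0.03 to 1.37, limma adjusted p = 0.734). For THBS1 the index ranged over 2.11 within siCTRL and 1.39 within siDNp63, against a median range over all 6 libraries of 0.170 for all genes. Its TPM of 1.205 ± 0.788 and 1.32 ± 0.644 thus rest on unstable transcript assignment. Within siCTRL the index also ranged over 1.71 for THBS2, 1.08 for THBS4 and 0.673 for FREM1. Within siDNp63 it ranged over 0.652 for FREM1, 0.626 for SPARC, 0.484 for THBS3 and 0.482 for THBS4. The TPM of these genes in these groups share this limit.

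**Figure D4:**
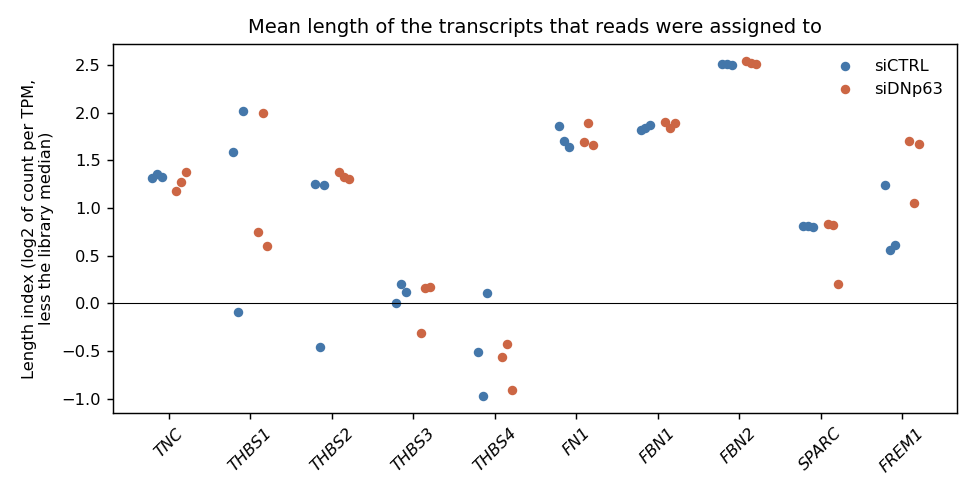
Length index of each gene (log2 of expected count per TPM, less the library median, vertical axis) in the 6 libraries, 1 point per library. The points of FBN1 and FBN2 lie close together in both groups. Within siDNp63 those of TNC range over 0.197 and those of FN1 over 0.231, whereas those of THBS1 range over 2.11 within siCTRL.

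Over the wider list of 55 matrix glycoproteins, 41 were tested, and 8 were lower, 8 higher and 25 did not pass (edgeR adjusted p below 0.05). Of all tested genes 15.2% were lower and 18.4% higher. The median log2 fold change of the list was 0.09, beside -0.02 for all genes. Without the 10 genes described above, 31 were tested, of which 6 were lower and 5 higher. The counts of the 41 include FREM1, THBS2 and SPOCK3, and those of the 31 include SPOCK3. These 3 passed the filter on low counts only through the group in which they were high, so they cannot be read against the shares of all genes. The genes past both thresholds outside the 10 were HMCN1, EFEMP1 and SPOCK3. HMCN1, which encodes hemicentin of epithelial cell junctions, had 18803, 17787 and 19317 normalized counts in siCTRL and 6628, 5883 and 6355 in siDNp63. It was lower in all silenced libraries (log2 fold change -1.57, SE 0.0553, edgeR adjusted p = 1.85e-06). EFEMP1, a fibulin, went from 291 ± 17.1 to 89.7 ± 3.25 normalized counts (SD, n = 3, log2 fold change -1.70, edgeR adjusted p = 1.95e-05). SPOCK3, a SPARC-related proteoglycan, rose from 4.74 ± 1.399 to 26.4 ± 3.74 normalized counts (SD, n = 3, log2 fold change 2.46, edgeR adjusted p = 0.00104). SPOCK3, like THBS2, was near the floor in siCTRL and passed the filter on low counts through the siDNp63 libraries.

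**Figure D5:**
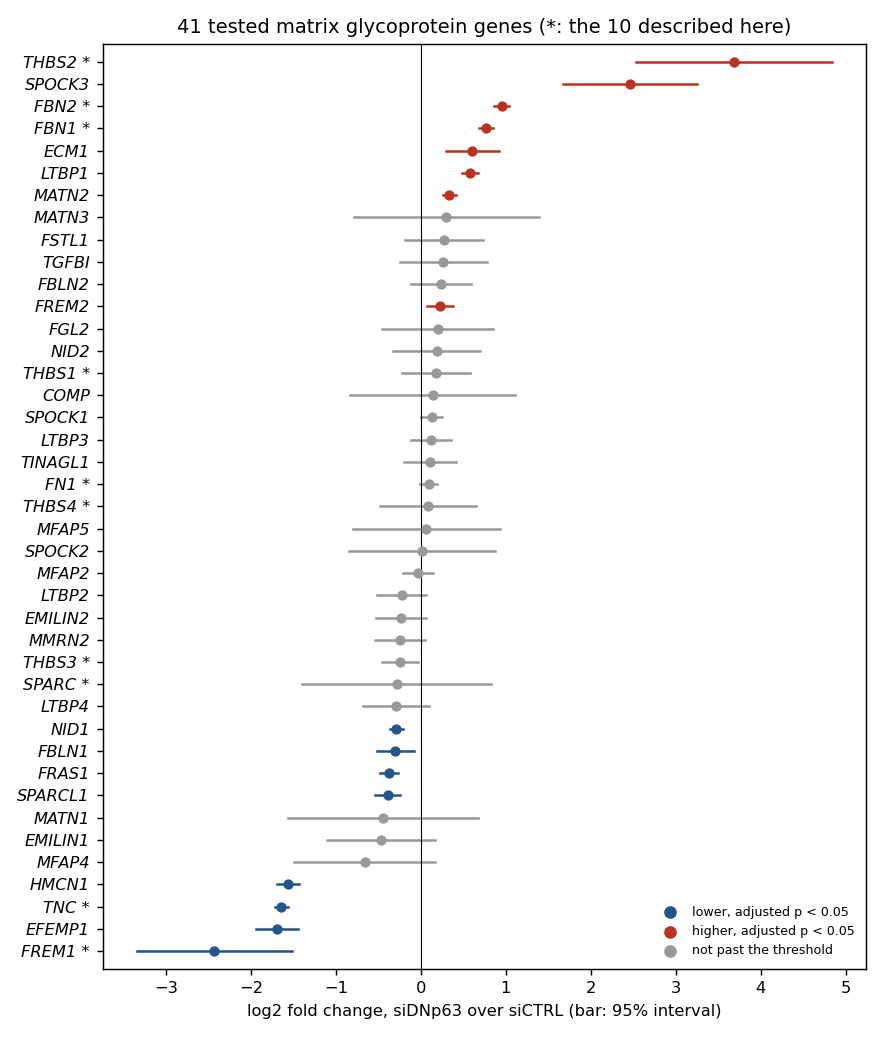
Log2 fold change of siDNp63 over siCTRL (horizontal axis) with its 95% interval from edgeR for the 41 tested matrix glycoproteins, asterisks marking the 10 genes described here. Lower genes (8) run from FREM1 and EFEMP1 to NID1, and higher genes (8) from THBS2 and SPOCK3 to FREM2.

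Some other genes of the wider list were named after their values were seen, part of them because they are close relatives of the 10. LTBP1, which binds latent TGF-β to fibrillin microfibrils, rose from 10033 ± 217 to 15001 ± 478 normalized counts (SD, n = 3, log2 fold change 0.58, edgeR adjusted p = 2.83e-05). The related LTBP2, LTBP3 and LTBP4 did not pass, with log2 fold changes of -0.23, 0.12 and -0.29. The same held for the microfibril-associated MFAP2 (-0.03), MFAP4 (-0.66) and MFAP5 (0.06). SPARCL1, the closest relative of SPARC, was lower by a log2 fold change of -0.39 (809 to 616 normalized counts, edgeR adjusted p = 0.00262), a call lost under transcript length offsets. NID1, a basement membrane linker, was lower at -0.29 (edgeR adjusted p = 3.48e-04), and MATN2, a filament-forming matrilin, was higher at 0.33 (edgeR adjusted p = 2.04e-04). The other tenascins did not pass the filter on low counts: TNXB had means of 6.39 and 0.889 normalized counts, TNR of 6.79 and 6.28, and TNN of 1.33 and 2.73. FBN3, the third fibrillin, was also below it (8.03 and 7.24), and COMP, the fifth thrombospondin, was tested at 16.3 and 18.3 normalized counts with a log2 fold change of 0.14 (edgeR adjusted p = 0.826).

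Integrins, syndecans and other cell surface proteins bind these ligands. Of 26 listed receptors 22 were tested, and 2 were lower, 7 higher and 13 did not pass, where 15.2% of all genes were lower and 18.4% higher, with a median log2 fold change of 0.11 beside -0.02 for all genes. ITGA9, the α chain of an integrin that binds tenascin-C, went from 356 to 716 normalized counts and was the receptor past both thresholds (log2 fold change 1.01, SE 0.0816, edgeR adjusted p = 6.87e-05). Its log2 fold change was below 1 with library size alone (0.92), with 10 counts in every library (0.997), with transcript length offsets (0.80), without siCTRL replicate 1 (0.95) and without siDNp63 replicate 1 (0.98), although the adjusted p passed in each. ITGB5, the β chain of a vitronectin receptor, rose by 0.61 (edgeR adjusted p = 2.91e-04). CACNA2D1, the gabapentin receptor that binds thrombospondins, went up to 3142 normalized counts from 1996 (log2 fold change 0.65, edgeR adjusted p = 3.00e-04), and SDC2, a syndecan, rose by 0.38 (edgeR adjusted p = 3.73e-04). The lower receptors, named after their values were seen, were PTPRZ1, a phosphatase that binds tenascins (7887 to 5825, log2 fold change -0.44, edgeR adjusted p = 6.83e-04), and ITGB4, the laminin-binding chain of hemidesmosomes (-0.83, edgeR adjusted p = 0.00684). CD47, the receptor of the thrombospondin C-terminus, had a log2 fold change of -0.01 (95% interval -0.13 to 0.11, edgeR adjusted p = 0.912), and ITGA5, the α chain of the fibronectin receptor, had -0.03 (-0.48 to 0.42, edgeR adjusted p = 0.925). ITGAV, whose integrins bind fibronectin and fibrillin, had 0.11 (-0.06 to 0.27, edgeR adjusted p = 0.288).

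Of 13 tested genes that assemble or cross-link these proteins, 1 was lower, 1 was higher and 11 did not pass, where 66.4% of all genes did not pass either, with a median log2 fold change of -0.19. FAM20B, a kinase of proteoglycan linker sugars, was higher at 0.32 (edgeR adjusted p = 7.10e-04). BMP1, a procollagen proteinase, was lower at -0.35 (edgeR adjusted p = 0.0207), and this call was lost when siCTRL replicate 1, 2 or 3 was left out. LOXL4, a lysyl oxidase, had 19.7 normalized counts in siCTRL and 9.43 in siDNp63, a log2 fold change of -1.07 (edgeR adjusted p = 0.0569), and TGM2, the transglutaminase that cross-links fibronectin, had -0.81 (edgeR adjusted p = 0.0784). Their 95% intervals were wide, from -1.92 to -0.22 for LOXL4 and from -1.52 to -0.10 for TGM2. LOXL4 had 27, 16 and 17 reads in siCTRL and 7, 7 and 14 in siDNp63, so it passed the filter on low counts only through siCTRL.

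The TGF-β axis is the pathway most closely tied to fibrillins, LTBP1 and THBS1. Of 11 tested genes 3 were lower, 3 were higher and 5 did not pass, with a median log2 fold change of 0.06. Of all tested genes 15.2% were lower and 18.4% higher. TGFBR3, the co-receptor betaglycan, went down to 2569 normalized counts from 4729 (log2 fold change -0.88, edgeR adjusted p = 9.89e-06), and SMAD3, a signal transducer, was lower at -0.33 (edgeR adjusted p = 3.99e-04). TGFBR1, the type I receptor, was higher at 0.28 (edgeR adjusted p = 0.00456). The ligands TGFB1, TGFB2 and TGFB3 did not pass, with log2 fold changes of 0.16, 0.11 and -0.15.

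The genes whose pattern was most like that of TNC were sought among the 7529 genes with a mean of at least 1000 normalized counts, by Pearson's r over the 6 libraries. DKK3, a secreted modulator of Wnt signalling, had an r of 0.99988 and a log2 fold change of -2.43, with 9295 normalized counts in siCTRL and 1718 in siDNp63. NPBWR1 (0.99975), FXYD3 (0.99962), RGS2 (0.9996) and STK39 (0.99942) came next, with log2 fold changes of -0.97, -0.66, -1.59 and -0.45. With 2 groups of 3, r mainly reflects the step between the groups, and the 5 genes were lower by quite different amounts, so this is a description with no test.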

How the data were processed

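RNA-seq of poly(A) RNA was analysed in 6 SCC90 libraries, 3 siCTRL and 3 siDNp63, grouped by their labels. Libraries were made with a stranded kit. According to the submitters' processing notes, bcl2fastq 2.17.1.14 and kallisto 0.46.2 were used with genome build hg38 and an annotation release not given in the sources used here. Per gene, the authors deposited expected counts, which kallisto estimates from the reads and which carry no scaling between libraries. They also deposited TPM, the abundance corrected by the authors for length and depth, which keeps no depth.

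Expected counts were rounded, filtered (filterByExpr, minimum count 10), scaled by TMM and tested with edgeR 4.0.16 (glmQLFit and glmQLFTest, R 4.3.3, group as the only term). SEs were derived from the log2 fold change and its F statistic. Normalized counts are counts scaled by TMM library size. The length index was tested with limma 3.58.1. Counting intervals are 95% exact Poisson intervals of the ratio of summed reads and cover counting error only. The pipeline was tested on simulated data. Alternatives included DESeq2 1.42.0, other scalings, filters and each library left out. A gene name table held 35538 of the 40488 gene identifiers.

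The genes and lists were chosen with earlier results of these data known. Named genes were the 10 genes, TP63, up to 4 genes of each list with the smallest edgeR p, any list gene past both thresholds, and the 5 genes most like TNC. Others were chosen after their values were seen. A listed gene that this rule would name is not reported here.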

Additional observations from a re-analysis of the deposited data

How the results depend on the processing

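The directions and calls of TNC, THBS2, FBN1, FBN2 and FREM1 held in every alternative that tested them, and THBS3 was called with library size alone. Requiring 10 counts in every library left THBS2, FREM1 and SPARC untested, so that 1 of the 10 genes was lower, 1 was lower and 0 higher past both thresholds, and 1 gene of the Fraser complex was lower. Under this filter 2 assembly genes, against 1, and 0 fibroblast and endothelial markers were lower. At an adjusted p below 0.005, 1 receptor, 0 assembly genes and 0 fibroblast and endothelial markers were lower, and 1 TGF-β gene, 3 epithelial markers and 0 Fraser genes were higher. Library size alone gave 4 lower assembly genes and 1 higher Fraser gene, limma-voom 2 lower assembly genes, DESeq2 0 lower fibroblast and endothelial markers, and transcript length offsets 0 lower assembly genes, 0 lower fibroblast and endothelial markers and 1 higher Fraser gene. Leaving out 1 library at a time gave 0 to 2 lower and 1 to 2 higher assembly genes, 1 to 2 higher Fraser genes and 0 to 1 lower fibroblast and endothelial markers. With 1 library left out, the log2 fold change of THBS4 ran from -0.081 (without siDNp63 replicate 2) to 0.21 and that of SPARC from -0.60 to 0.065 (without siDNp63 replicate 3), so both turned in sign. A stricter threshold passes fewer genes by construction, and the causes of the other shifts were not tested. Over all genes library size alone called 4117 lower and 2330 higher (36.1% higher), against 2626 and 3177 (54.7% higher) with TMM. On log2(TPM + 1), which compresses low genes, THBS2 was at 0.25 and FREM1 at -0.37. Deviations from the group means were nearly uncorrelated between same-numbered libraries (correlations -0.00770, 0.0181 and 0.0254). This cannot show whether same-numbered libraries were prepared together. With the replicate numbers as a block 2175 genes were lower and 2777 higher, and 2 and 3 of the 10 genes. Depth limits THBS2, SPARC, FREM1 and THBS4, which rest on few reads per library.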
